A study of Mus musculus with 12 samples.

Results

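The Ly49 receptors described here are the products of 9 genes, Klra1, Klra3, Klra4, Klra5, Klra6, Klra7, Klra8, Klra9 and Klra10, taken by symbol from 32285 genes, together with the 2 antibodies of 102 whose names begin with Ly49, Ly49D and Ly49H. They were followed through 11036 natural killer (NK) cells and 28518 T cells out of 45477 immune cells from B16-F10 tumours, a mouse melanoma line injected into the skin of B6.129S7-Rag1tm1Mom/J mice. All 6 tumour-bearing mice received Pmel Thy1.1 CD8+ T cells, whose receptor recognises a melanoma protein. The labels give 3 control samples the treatment vehicle and 3 samples CAL-101 (idelalisib), an inhibitor of the PI3Kδ kinase. Only the title places this inhibition in vitro, and the labels do not say in words that the T cells rather than the mice received the drug. Live CD45.2+ cells were sorted from the resected tumours, so each mouse gave 1 library of RNA and 1 of antibody tags from the same cells. Mice without Rag1 make no mature T or B cells of their own but keep NK cells, so the NK cells belong to the host and the T cells were transferred. The labels give neither the ages of the mice nor the culture dose. The labels do not say whether the mice shared a donor of T cells or a day of work, so p-values measure the spread between these mice.

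Ly49 receptors are lectin-like proteins of the NK cell surface, encoded side by side in the NK gene complex on mouse chromosome 6. Most members, among them Ly49A (Klra1), Ly49C (Klra3), Ly49E (Klra5), Ly49F (Klra6), Ly49G (Klra7), Ly49I (Klra9) and Ly49J (Klra10), carry an inhibitory motif in the cytoplasmic tail, and the best studied of them bind class I MHC molecules. Ly49D (Klra4) and Ly49H (Klra8) are activating members that signal through the adaptor DAP12 (Tyrobp), and Ly49H binds a protein of mouse cytomegalovirus. Each NK cell expresses its own mixture of members, so that an NK cell population is a mosaic of overlapping subsets.

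The 9 genes lie on chromosome 6 (GRCm38.p6, minus strand), from Klra5 at 129898988 to 129913237 up to Klra1 at 130363918 to 130386874, and all are annotated as protein coding. Promoter windows from RefSeq were searched because several members were found together in the same cells. AAGCANTTTCC was the 11-base pattern with 1 free middle base (N) that most members shared in the 250 bases before their starts. Sought on both strands, it was present for 7 of the 9 genes (8 of their 11 windows) and in 42 of 32851 windows of the whole table (0.128%), a description since the pattern was picked from these windows. The stretches around it are shown for the 6 members in which they lie before the annotated gene, to let the likeness of the flanks be seen, with the pattern in capitals.

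Klra3, chr6:130337630-130337668: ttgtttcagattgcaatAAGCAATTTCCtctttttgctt
Klra6, chr6:130027058-130027096: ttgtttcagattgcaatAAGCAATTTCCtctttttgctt
Klra5, chr6:129913299-129913337: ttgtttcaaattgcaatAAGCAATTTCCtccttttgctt
Klra7, chr6:130233396-130233434: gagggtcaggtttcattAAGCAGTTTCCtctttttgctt
Klra4, chr6:130067335-130067373: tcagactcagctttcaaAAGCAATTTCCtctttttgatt
Klra8, chr6:130129963-130130001: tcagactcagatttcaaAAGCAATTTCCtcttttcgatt

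The printed stretch was identical in Klra3 and Klra6 (39 of 39 bases), inhibitory members that were about an order of magnitude apart in RNA. Klra4 and Klra8, the activating pair, shared 37 of 39 bases with each other and 23 or 24 with each inhibitory member printed. The windows of Klra1 and Klra10 held no match, which says only that these letters are not in those windows. The 2 antibodies were read through these 15-base tags, which name the protein reagent and not a sequence of the gene.

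Ly49D tag: TATATCCCTCAACGC
Ly49H tag: CCAGTAGGCTTATTA

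The 6 libraries held 75716841 to 97933109 RNA UMIs and 12748632 to 18237209 antibody tags. A UMI marks 1 captured transcript, and because capture was at the 3′ end a level in CPM, the UMIs of a gene scaled to an equal RNA total for every cell set, can be compared between genes without regard to length. The sources used here do not say how reads shared by near-identical Klra genes were assigned, so the split between the closest members, and the pseudogenes beside them, is uncertain. The NK cells are those the authors labelled so in their clusters 0 (7471 cells), 7 (1877), 8 (820), 9 (801) and 13 (67). All 8 NK markers checked, among them Ncr1 and Klrb1c, were present in the NK cells at 8351 to 11134 CPM in sum, and the 8 T cell markers summed to 3237 to 3715 CPM in the T cells. Pairs of libraries shared 8 to 31 cell barcodes. No source used here says whether doublets were removed before deposit, and none were removed here.

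Klra7, the gene of the inhibitory receptor Ly49G, was the most abundant member in cluster 0, which held most of the NK cells. Its level was 621, 528 and 545 CPM in the 3 control mice and 548, 659 and 604 CPM in the 3 CAL-101 mice, a mean of 584 ± 51.5 (SD, n = 6). The activating genes came next. Klra4 averaged 346 ± 43.9 CPM and Klra8 299.9 ± 23.1 CPM (SD, n = 6), with overlapping ranges of 311 to 425 and 262 to 322 CPM. Klra9 averaged 167 ± 31.6 CPM, below every mouse's Klra8.

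The other inhibitory members were scarcer. Klra3 averaged 92.6 ± 14.9 CPM and Klra1 73.1 ± 10.0 CPM, and their ranges over mice overlapped. Klra5 lay at 27.98 ± 6.49 CPM, Klra6 at 8.54 ± 2.74 CPM and Klra10 at 3.17 ± 1.26 CPM (SD, n = 6 each). No mouse's value of one of these last 3 genes reached the range of the gene above it. The distant family member Klra2, the gene of Ly49B, was at 0.462 CPM in cluster 0 and at 179 CPM in the few neutrophils, where Klra17, the gene of Ly49Q, was at 19.4 CPM.

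**Figure D1:**
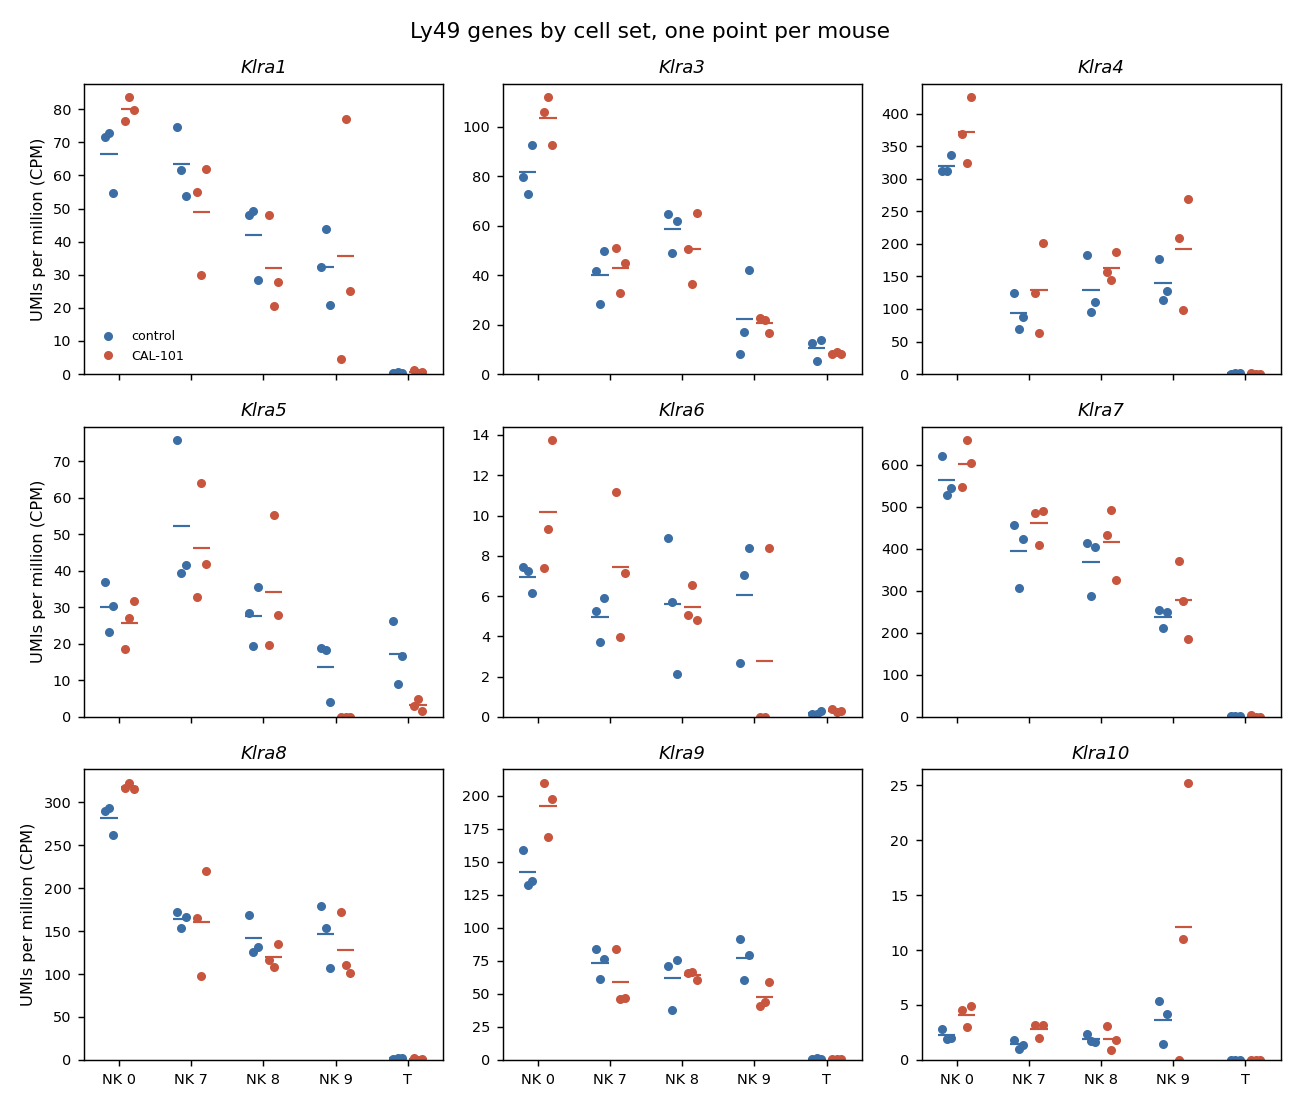
RNA level of each of the 9 Ly49 genes in CPM on a linear axis of its own, 1 point per mouse, in NK clusters 0, 7, 8 and 9 and in T cells, with control mice in blue, CAL-101 mice in red and a short line at each group's mean. Klra7 stands near 584 CPM in cluster 0, and Klra5 and Klra3 are the members whose T cell points lie nearest to those of NK cells.

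The clusters were made from the same cells and genes, so their differences are given as a description without a test. In cluster 7, Klra4 was at 112 CPM, 0.323 of its cluster 0 level, and Klra9 at 66.4 CPM, 0.397 of it. Klra5 moved the other way, at 49.2 CPM in cluster 7 or 1.76 times its cluster 0 level. Klra1 was at 0.768 of its cluster 0 level there. Klra5 was thus the only one of the 9 genes above its cluster 0 level in cluster 7. In cluster 8 it was again the sole member above, by 1.11 times, while Klra9 was at 0.377.

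Cluster 9, whose cells had a median of 2137 RNA UMIs against 6269 in cluster 0, held less Klra3 (0.231 of the cluster 0 level) and less Klra5 (0.246). Klra10 had 9 UMIs in cluster 9, of which 3 came from CAL-101 mouse 3 and none from CAL-101 mouse 1, too few for a ratio. The 67 cells of cluster 13 held 171 UMIs of Klra7, or 334 CPM (exact 95% Poisson interval 286 to 388). The same cells held 2 UMIs of Klra4, or 3.91 CPM (0.473 to 14.1). Klra6 and Klra10 had no UMI there, which allows up to 7.21 CPM by the same interval. These intervals cover counting error only. Cluster 13 therefore held Ly49G transcripts and almost none of Ly49D.

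T cells held most members at a trace. Their levels of Klra1, Klra4, Klra7, Klra8, Klra9 and Klra10 were 0.264% to 0.849% of those of NK cells. Klra5 and Klra3 stood apart, at 28.9% and 14.04% of the NK level, and Klra6 was at 3.65%. Their levels in T cells were 10.2 ± 9.51 CPM for Klra5 and 9.42 ± 3.14 CPM for Klra3 (SD, n = 6). The 2507 cells labelled T cells inside the NK clusters had 47% to 71% of the NK levels of the 9 genes, and they are left out of the T cell values.

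Free RNA can give UMIs in cells that do not express a gene, so the shares of cells with a UMI were compared after thinning every cell to 1500 RNA UMIs. Of 27841 T cells, 1.03% had a Klra5 UMI (exact 95% interval 0.912% to 1.15%) and 1.21% a Klra3 UMI, against 0.198% for Klra4 and 0.453% for Klra7, genes that NK cells hold at far higher levels. These shares and intervals pool the cells of all mice, and the intervals cover counting error only. By mouse the Klra5 share of T cells ran from 0.178% to 2.13%. Among NK cells at the same depth the shares were 2.85% for Klra5, 8.34% for Klra3, 22.3% for Klra4 and 39.7% for Klra7. Of 400 neutrophils, which should lack these genes, 1 had a UMI of Klra5 (0.25%), 1 of Klra3 (0.25%) and 1.0% had one of Klra7. The exact 95% interval was 0.0063% to 1.385% for both Klra5 and Klra3, which holds the pooled T cell shares of both genes. These neutrophils were thus too few to place the T cell shares above background. In T cells Klra5 was more frequent than Klra7 in 3 of 3 control mice and 1 of 3 CAL-101 mice, whereas in NK cells Klra7 was the more frequent in 6 of 6 mice. Thinning left out 677 T cells, and without it 3.62% of T cells had a Klra5 UMI and 6.01% a Klra3 UMI. Median depths in RNA UMIs were 6969 for NK cells, 3175.5 for neutrophils and 10496 for T cells.

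At the protein level the mean tag shares of Ly49D and Ly49H were higher in cluster 0 NK cells than in T cells. The single cells overlapped, with 23.3% of cluster 0 cells and 30.6% of T cells at 0 Ly49D tags. Ly49D tags made up 2.61% ± 0.355 of all tags of cluster 0 (SD, n = 6; 1.93% to 2.91%) and Ly49H tags 1.33% ± 0.159 (1.15% to 1.59%). In T cells Ly49D was at 0.0700% ± 0.0099, below the 0.0749% of the highest of 7 isotype controls, and Ly49H at 0.148% ± 0.0093. The Ly49D share of tags was lower in cluster 7, at 1.10%, and in cluster 13, at 0.193%, while Ly49H was at 0.901% and 0.753%. Counted per cell, cluster 7 was close to cluster 0 for Ly49D (22.3 against 24.5 tags) and higher for Ly49H (18.7 against 12.5), with medians of 1862 and 846 tags of all antibodies per cell. The cluster 13 value of Ly49H ranged from 0.0561% to 2.87% between mice, on few cells.

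Each antibody was most frequent on cells with RNA of its own gene. In cluster 0, cells with a Klra4 UMI carried 5.89% ± 0.628 Ly49D tags and cells without one 0.287% ± 0.0753, a 21.2-fold ratio that was above 1 in 6 of 6 mice. Cells with a Klra8 UMI carried 2.41% ± 0.181 Ly49H tags and those without 0.377% ± 0.0515, a 6.42-fold ratio, also in 6 of 6 mice. The crossed pairs were smaller. Ly49D was 2.13-fold higher in cells with Klra8 and Ly49H was 1.55-fold higher in cells with Klra9. In the 136 cells with a Klra10 UMI, Ly49D was 1.66-fold and Ly49H 1.62-fold higher, each in 6 of 6 mice. Ly49D was 0.664 times as high in cells with Klra5, lower in 5 of 6 mice. In an exact 2-sided sign-flip permutation test over the 6 mice, 9 of the 18 gene and antibody pairs had p = 0.0312, the smallest such a test can give, and adjusted over the 18 pairs it was 0.0625, so that none passed 0.05. With every cell thinned to 3000 RNA UMIs the log2 ratios of the matched pairs were 3.45 for Klra4 and 2.19 for Klra8, against 4.41 and 2.68 without thinning.

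Cells were then called positive at 10 or more tags. In cluster 0, 39.1% ± 5.09 of cells were Ly49D+ and 35.7% ± 5.95 were Ly49H+ (SD, n = 6). Both receptors were found on 20.4% ± 3.15 of the cells, 1.48 ± 0.194 times the share that independent receptors would give, with a range of 1.26 to 1.82 over the 6 mice. Put otherwise, 52.2% of Ly49D+ cells and 25.4% of Ly49D- cells were Ly49H+. Cluster 7 had fewer Ly49D+ cells, 23.1%, as many Ly49H+ cells, 39.0%, and a ratio of 1.70 ± 0.232. The cut was not scaled to all tags of a cell, whose median was 1862 in cluster 7 and 846 in cluster 0. As a share of tags Ly49H was lower in cluster 7 (0.901% against 1.33%). A positive class cut from tag counts is a range: 13.9% of cluster 0 cells had 6 to 12 Ly49H tags and 2.11% had that many Ly49D tags. Of T cells, 0.554% passed for Ly49D and 2.18% for Ly49H.

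**Figure D2:**
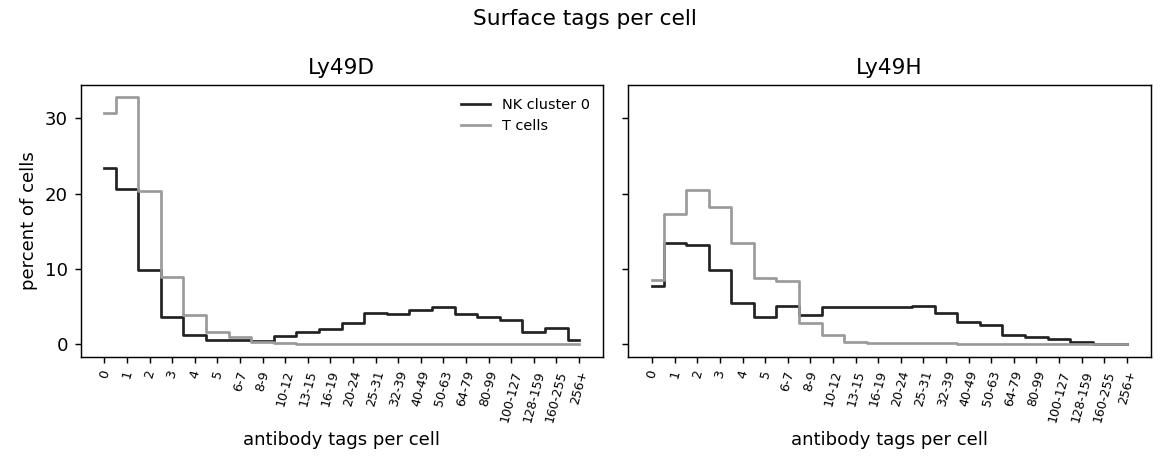
Share of cells (percent) by number of Ly49D or Ly49H tags per cell, in cluster 0 NK cells (black) and in T cells (grey), in bins that widen to the right. Ly49D has a dip near 10 tags in NK cells, with 2.11% of cells at 6 to 12 tags, while Ly49H has no such dip, with 13.9% there.

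The RNA of the 4 protein classes of cluster 0 followed the same lines. Klra4 was at 912 CPM in cells positive for both receptors and 885 CPM in cells with Ly49D alone, against 10.4 CPM with Ly49H alone and 11.6 CPM with neither. Klra8 was at 731, 164, 604 and 53.0 CPM in the same order of classes. Cells called Ly49H- but Ly49D+ thus held more Klra8 RNA than cells with neither receptor. Klra6 was at 14.9, 12.04 and 17.7 CPM in the 3 classes with a receptor and at 1.76 CPM in the class with neither. Klra5 ran the other way, with 16.5 CPM in cells with both receptors and 35.6 CPM in cells with neither.

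Most cluster 0 cells showed more than 1 member even at a shallow depth. After thinning 7027 cells to 3000 RNA UMIs, 12.9% ± 2.77 of cells had a UMI of no member, 28.2% of 1 member, 27.95% of 2, 21.0% of 3, 8.66% of 4 and 1.39% of 5. Klra7 was seen in 58.1% of cells, Klra8 in 37.4%, Klra4 in 33.9%, Klra9 in 27.0%, Klra3 in 15.7% and Klra1 in 9.89%. Klra5 was seen in 3.82%, Klra6 in 1.87% and Klra10 in 1.02%. A cell without a UMI at this depth may still express the gene.

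Members were not spread over cells independently. Among the 28 pairs that leave out the scarce Klra10, the ratio of cells with both genes to the product of the single shares was above 1 in all 6 mice for 8 pairs and below 1 in all 6 for 6 pairs, with a median of 1.06 and a range from 0.399 to 1.69. Klra4 and Klra8 were found together in 1328 cells against 902 for independent genes, a ratio of 1.54 ± 0.235 (SD, n = 6; 1.34 to 1.97). Klra1, the gene of Ly49A, was over 1 with both activating genes, at 1.37 ± 0.137 with Klra4 and 1.22 ± 0.136 with Klra8. Klra8 and Klra9 had a ratio of 1.25 ± 0.0916, and Klra6 and Klra7 1.27 ± 0.06.

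The 6 pairs below independence in every mouse all held Klra5 or joined inhibitory members. Klra4 and Klra5 shared 55 cells against 88.2 for independent genes, 0.562 ± 0.141, and Klra5 and Klra8 had a ratio of 0.786 ± 0.125. Klra1 and Klra3 had a ratio of 0.784 ± 0.102 and Klra7 and Klra9, the most frequent inhibitory pair, 0.887 ± 0.054. Klra1 with Klra5 (15 cells) and Klra3 with Klra6 (16 cells) were also below 1 in every mouse but rest on few cells. The mean ratio of Klra3 with Klra6 was 0.735 at 3000 UMIs but 1.5 at 1500, 1.19 at 5000 and 1.09 without thinning, so its direction depended on depth. That of Klra5 with Klra8 was 1.30 at 1500 UMIs, with 1 of 6 mice above 1. No test was run on these ratios. Doublets were not removed and their part was not tested. At 5000 UMIs per cell, 11 pairs were above 1 in all 6 mice and 2 below, and at 1500 UMIs 6 and 3.

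**Figure D3:**
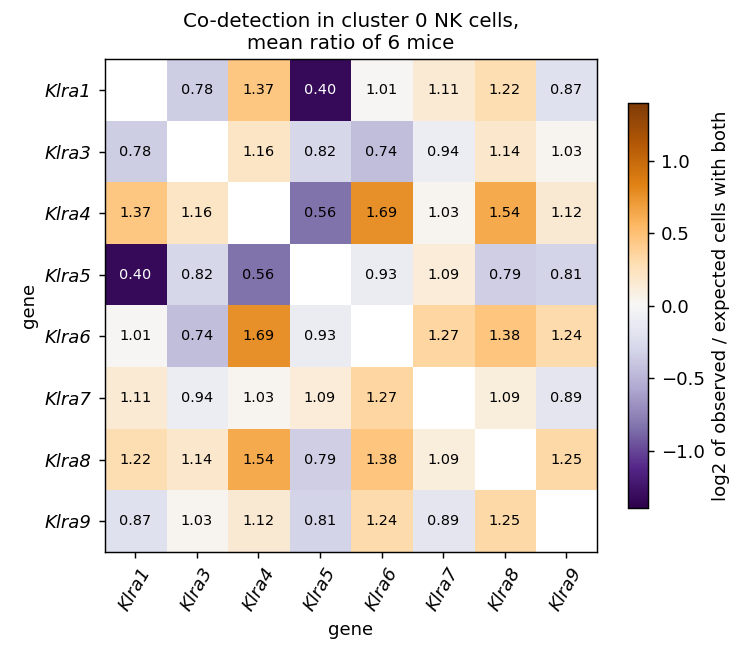
Heat map of the log2 ratio of observed to independent co-detection for pairs of Ly49 genes in cluster 0 NK cells thinned to 3000 UMIs, as the mean over 6 mice, with the ratio itself printed in each field. Klra4 with Klra8 (ratio 1.54) is above independence and Klra5 with Klra4 (ratio 0.562) below it.

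To see which RNA goes with a surface receptor, the cluster 0 cells of each mouse with the highest 25% of Ly49D tag shares were compared with those with the lowest 25%. The cells were picked by protein and the RNA was tested within mice over 10846 genes, of which 5.51% were called (2.46% higher and 3.05% lower in the Ly49D-high cells). Klra4 itself ran from 0 to 7.31 CPM in the Ly49D-low cells (median 1.02) and from 896 to 1157 CPM in the Ly49D-high cells (median 1018), a log2 difference of 8.27 (SE 0.13; edgeR adjusted p = 5.04e-38). The groups were far apart in all 6 mice. Klra8 had a median of 213 CPM in the low cells (150 to 222) and 436 CPM in the high cells (411 to 648), a difference of 1.21 (SE 0.07; edgeR adjusted p = 6.87e-18), again without overlap.

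Of the 9 members 5 were higher in Ly49D-high cells and 1 lower. Klra6 was higher by 1.17 (SE 0.25; edgeR adjusted p = 0.002), in 6 of 6 mice. Klra1 was higher by 0.55 (SE 0.12; edgeR adjusted p = 0.0018), in 5 of 6 mice, but without control mouse 1 its adjusted p was 0.0708. Klra3 was higher by 0.30 (edgeR adjusted p = 0.0186), a call that ended when control mouse 3, CAL-101 mouse 1 or CAL-101 mouse 2 was left out (adjusted p 0.0542 to 0.0721). It also ended with RNA thinned to 3000 UMIs (edgeR adjusted p = 0.18), with tags taken over the isotype controls (0.101) and with cells ranked by tag count (0.239). Klra5 was the member that was lower, by a log2 difference of -1.02 (SE 0.15; edgeR adjusted p = 6.07e-06), with medians of 41.9 CPM in the low and 15.98 CPM in the high cells and 1 of 6 mice going the other way. Klra7, Klra9 and Klra10 were not called, with differences of -0.06, 0.04 and 0.98. The median of the 9 genes was 0.55, against 0.003 for all genes tested.

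Ly49D-low cells held more RNA of genes linked to tissue residence and to type 1 innate lymphoid cells. Of 10 such genes 8 were lower in Ly49D-high cells and none was higher, with a median of -1.11. Tmem176b differed by -2.65, Tmem176a by -2.17, Il7r, the interleukin 7 receptor, by -1.70 and Inpp4b by -0.76 (edgeR adjusted p from 1.08e-11 to 2.52e-07). Tmem176b and Tmem176a each had a mean under 10 CPM over the high and low cells. Of 14 other NK receptor genes 6 were lower and 1 higher. Klrc1, the gene of the inhibitory receptor NKG2A, was at 147 CPM in the low and 46.1 CPM in the high cells (-1.72, SE 0.08; edgeR adjusted p = 6.11e-21), lower in 6 of 6 mice. Cd226, the gene of the activating receptor DNAM-1, differed by -1.63, Klrb1b by -0.84 and Slamf7 by -0.48.

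Genes of NK maturation were split, with Itga2 (0.39) among those higher and Klrg1 (-0.85) and Gzma (-0.21) lower among 11. Of 14 transcription factors Eomes (0.39) and Zeb2 (0.38) were higher and Ikzf2, which encodes Helios (-0.99), and Gata3 (-0.34) lower in Ly49D-high cells. Of the 15 tested partners of receptor signalling only Hcst, the gene of the adaptor DAP10, was called, at -0.17. Among 10 class I genes B2m (-0.13) and H2-D1 (-0.12) were lower by these small amounts. Apart from the members, the called genes with the largest differences among those with a mean of at least 10 CPM were Adgrl4 (1.94), Cmah (1.61), Nr3c2 (1.45), Sox5 (1.30), Tbc1d4 (1.12) and Klhl4 (1.11) upwards, and Socs2 (-1.92), St6galnac3 (-1.59) and Ifit3 (-1.39) with Klrc1, Il7r and Cd226 downwards.

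The same comparison by Ly49H gave calls for 3.41% of 10945 genes (1.70% higher, 1.71% lower). Klra8 ran from 2.30 to 17.6 CPM in Ly49H-low cells (median 6.56) and from 689 to 909 CPM in Ly49H-high cells (median 748), a log2 difference of 6.58 (SE 0.11; edgeR adjusted p = 9.47e-33). Of the 9 members 6 were higher in Ly49H-high cells and none lower. Klra6 had a median of 4.13 CPM in the low cells (1.96 to 6.91) and 14.04 CPM in the high cells (9.63 to 31.9), without overlap, a difference of 1.87 (SE 0.23; edgeR adjusted p = 4.78e-07). Klra4 was higher by 1.11 (SE 0.08; edgeR adjusted p = 8.09e-12).

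Klra9 was called by Ly49H and not by Ly49D. Its median was 116 CPM in Ly49H-low cells (92.6 to 166) and 238 CPM in Ly49H-high cells (202 to 309), a difference of 0.97 (SE 0.06; edgeR adjusted p = 2.12e-13), while by Ly49D it was 0.04. Whether these differences differ was not tested. Klra3 was higher by 0.47 (edgeR adjusted p = 6.42e-04), but with tags taken over the isotype controls it was 0.30 and not called (adjusted p = 0.0534). Klra7 was higher by 0.17 (edgeR adjusted p = 0.0141), a call lost without control mouse 2 (adjusted p = 0.214), with RNA thinned to 3000 UMIs (0.07, adjusted p = 0.68), over the isotype controls (0.112) and ranked by tag count (0.171). Klra1, Klra5 and Klra10 were not called, at 0.02, -0.37 and 1.25. Over the isotype controls Klra1 (0.38, edgeR adjusted p = 0.0275) and Klra10 (1.41, adjusted p = 0.0427) were called, as was Klra10 with the third of cells at each end (1.34, adjusted p = 0.0268).

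The same lists were read in Ly49H-high cells, some of which are also Ly49D-high. Of the 10 residence genes 5 were lower and none higher (median -0.73), among them Tmem176b (-2.17) and Il7r (-1.54). Tmem176b was at 18.98 ± 12.58 CPM in the low and 4.55 ± 3.43 CPM in the high cells (SD), with 2 mice going the other way. Klrc1 differed by -1.11, Cd226 by -1.03 and Klrb1b by -0.63, and Klri2 by 0.28. Of 14 transcription factors Zeb2 (0.56) and Tox (0.38) were among the 4 higher and Ikzf2 (-0.91) and Runx3 (-0.20) were the 2 lower. Of 11 maturation genes Itga2 was higher (0.42) and Klrg1 (-0.39), Gzma (-0.15) and Gzmb (-0.17) were lower. Fyn (0.19) was the only one of 15 signalling partners called, and no class I gene was called at 10 tested.

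The largest called differences by Ly49H outside the family, among genes with a mean of at least 10 CPM, were Adgrl4 (1.74), Rnf180 (1.31), Sdc4 (1.08), Tanc2 (1.05), Map3k20 (1.05) and Dbndd2 (1.02) upwards. Downwards they were Tmem176b, Hspb1 (-2.13), Acpp (-1.82), Socs2 (-1.64), Il7r and Tgfa (-1.48). Hspb1, a heat shock gene, was no longer called without CAL-101 mouse 2 (-1.14; edgeR adjusted p = 0.231). Counts of all genes called without control mouse 1 or control mouse 2 were 378 and 359 in place of 598 for Ly49D and 217 and 219 in place of 373 for Ly49H.

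**Figure D4:**
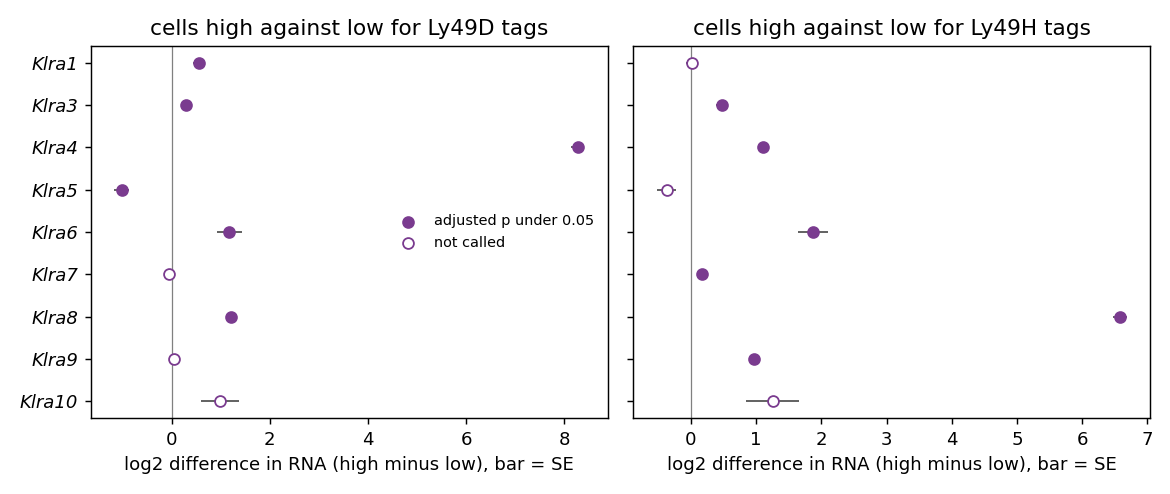
Log2 difference in RNA (with SE) of the 9 Ly49 genes between cluster 0 NK cells with the highest and lowest 25% of Ly49D (left) or Ly49H (right) tag shares, from the paired edgeR fits, with filled points for an adjusted p under 0.05. The matched genes lie at 8.27 and 6.58, Klra9 is at 0.04 by Ly49D and 0.97 by Ly49H.

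Between control and CAL-101 mice none of the 9 Ly49 genes was called in NK cells as a whole. The background was 4.30% of 13841 genes at an edgeR adjusted p under 0.05. At an unadjusted p under 0.05 there were 2 members (1 by DESeq2, which also called none), with no share of all genes taken beside them. Klra7 was at 474 ± 70.8 CPM in controls and 507 ± 10.9 CPM in CAL-101 mice (SD, n = 3 each), and Klra8 at 219.9 ± 15.3 and 221 ± 31.4 CPM. Klra4 was at 213 ± 29.8 and 247 ± 60.7 CPM. All 9 genes had overlapping groups. The largest difference was that of Klra10, 0.87 (SE 0.26; edgeR adjusted p = 0.093), on 254 UMIs. The median of the 9 genes was 0.16, against -0.004 for all genes tested.

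Surface Ly49D and Ly49H were not called either. Ly49D took 1.90% ± 0.261 of the tags of NK cells in controls and 2.03% ± 0.622 in CAL-101 mice, a log2 difference of -0.06 in the fit (SE 0.29; edgeR adjusted p = 0.890), and 0.980% of 102 antibodies were called. The fit also applies TMM factors, and its sign was opposite to that of the mean shares, by less than its SE. Ly49H took 1.06% ± 0.091 and 1.21% ± 0.26, a difference of 0.04 (SE 0.21; edgeR adjusted p = 0.890). The shares of Ly49D+, Ly49H+ and doubly positive cells gave exact permutation p of at least 0.3 in clusters 0 and 7, where 3 against 3 mice cannot go below 0.1. Cells with Ly49H and no Ly49D made up 25.5%, 25.6% and 27.1% of cluster 7 in controls and 21.5%, 21.5% and 22% in CAL-101 mice, without overlap (exact permutation p = 0.1, not adjusted). At 8 tags the exact p was again 0.1, and at 16 tags it was 0.2.

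Within cluster 0, the largest NK cluster, Klra9 and Klra10 were higher in CAL-101 mice. These are 2 of 9 members against a background of 4.90% of 12445 genes (2.76% higher). Klra9, the gene of the inhibitory receptor Ly49I, was at 159, 133 and 135 CPM in the control mice and 209.6, 169 and 198 CPM in the CAL-101 mice. The lowest CAL-101 mouse lay above the highest control, and the log2 difference was 0.43 (SE 0.09; edgeR adjusted p = 0.0101). The call ended without control mouse 3 (adjusted p = 0.0708), CAL-101 mouse 1 (0.0948) or CAL-101 mouse 3 (0.0602), with differences of 0.35 to 0.42. Klra10 was at 2.79, 1.87 and 2.01 CPM in controls and 4.51, 2.95 and 4.88 CPM in CAL-101 mice, 151 UMIs in all. Its difference of 0.98 (SE 0.27; edgeR adjusted p = 0.0477) lost the call in each of 5 of the 6 leave-one-out fits, all but that without CAL-101 mouse 2.

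Klra3 (0.32, edgeR adjusted p = 0.0672), Klra1 (0.23) and Klra8 (0.16) were not called in cluster 0. Their groups did not overlap, with CAL-101 mice higher. The share of all genes whose groups did not overlap was not taken, so this does not set these 3 genes apart. Klra3 was called without control mouse 3 (0.42; edgeR adjusted p = 0.0429). In cluster 7 none of 8 tested members was called (0.799% of genes), in cluster 8 none of 8 (0.0977%) and in cluster 9 none of 4 (0.767%), each by edgeR. At an unadjusted p under 0.05 there were 6 of 9 in cluster 0, and 0, 0 and 1 in clusters 7, 8 and 9. No share of all genes at that threshold was taken, so these counts are not read as a result about the members. In clusters 7, 8 and 9 Klra9 differed by -0.30, 0.10 and -0.72. Between cluster 7 and cluster 0 the CAL-101 minus control difference of Klra9 differed by -0.73 (SE 0.15; edgeR adjusted p = 0.166), not called.

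Genes of the pathway lists were also tested in NK cells, where 4.30% of all genes were called. The count depended on single mice, since the 595 genes called became 28 without control mouse 1, 14 without control mouse 3, 30 without CAL-101 mouse 1, 294 without CAL-101 mouse 2 and 2 without CAL-101 mouse 3. Of 16 signalling partners Ptpn6, the gene of the phosphatase SHP-1 that inhibitory receptors recruit, rose by 0.75 (edgeR adjusted p = 0.022) in CAL-101 mice and Hcst fell by 0.36 (edgeR adjusted p = 0.0256). The other 14, Tyrobp among them, were not called. Of 10 class I genes H2-Q4 fell by 0.41 and H2-Q6 by 0.35. Of 14 other NK receptors Klre1 rose by 0.51, Ncr1, the gene of the natural cytotoxicity receptor NKp46, by 0.37, and Klrb1b fell by 0.41. Il7r fell by 1.10, Ikzf2 rose by 0.48, Itga2 by 0.55 and Inpp4b by 0.52. NK cells numbered 2073, 3379 and 2358 in the control libraries and 1928, 471 and 827 in the CAL-101 libraries.

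In T cells, Klra5, the gene of the inhibitory receptor Ly49E, was lower in CAL-101 mice. Its level was 26.2, 8.97 and 16.6 CPM in the control mice and 2.88, 5.01 and 1.68 CPM in the CAL-101 mice. Every control lay above every CAL-101 mouse, and control mouse 2 lay nearest to them. The log2 difference was -2.48 (SE 0.45; edgeR adjusted p = 0.00845), a 5.57-fold lower level. Klra5 was the only member called of 8 tested, against a background of 17.3% of 16450 genes (8.92% lower), a share near that of all genes. Klra10 had 2 UMIs in T cells and was not tested. At 1500 UMIs per cell, 2.13%, 1.03% and 1.84% of control T cells and 0.275%, 0.465% and 0.178% of CAL-101 T cells had a Klra5 UMI.

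Klra3, the other member that stood apart in T cells, was at 12.4, 5.35 and 13.8 CPM in controls and 7.997, 9.001 and 7.95 CPM in CAL-101 mice. The groups overlapped through control mouse 2, and the difference of -0.39 (SE 0.28) was not called (edgeR adjusted p = 0.38). Without control mouse 2 it was -0.70 (edgeR adjusted p = 0.00138). Klra7, at 2.85 and 2.16 CPM in the 2 groups, was called lower without CAL-101 mouse 1 (-1.46; edgeR adjusted p = 0.00717). Klra17, a family member outside the 9, was lower by a log2 difference of -1.39 (edgeR adjusted p = 0.0259) at under 1 CPM, and lost the call without control mouse 3 (0.0844), CAL-101 mouse 2 (0.0649) or CAL-101 mouse 3 (0.105). Surface Ly49D (0.06) and Ly49H (0.00) were not called in T cells, where 16.7% of 102 antibodies were.

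The T cells of the 2 groups lay in different clusters. Cluster 3 held 1896, 823 and 1954 cells of the control mice and 172, 684 and 427 of the CAL-101 mice, and cluster 5 held 179, 92 and 107 against 885, 1393 and 1271. At 1500 UMIs 1.98% of cluster 3 cells and 0.153% of cluster 5 cells had a Klra5 UMI, pooled over mice of both groups. By mouse, cluster 3 had 3.33%, 1.09% and 2.0% in controls and 0%, 1.02% and 0% in CAL-101 mice. Cluster 5 had 0%, 1.09% and 0.935% in controls and 0.113%, 0.144% and 0.0787% in CAL-101 mice. The pooled shares thus also carry the difference between the groups. The part of the cluster mix in the value over all T cells was not tested. Within clusters the Klra5 differences were all negative. By edgeR it was called in cluster 1 (-2.61, adjusted p = 0.00292, with 6.13% of genes called lower), cluster 2 (-2.02, adjusted p = 0.0128, 6.69%), cluster 4 (-2.35, adjusted p = 0.0052, 4.65%) and cluster 5 (-2.27, adjusted p = 0.024, 2.80%). In cluster 3 the difference was -1.77 (edgeR adjusted p = 0.0831, 3.47%), with groups that overlapped, and it was called without control mouse 2 (-2.07; adjusted p = 0.00492). In cluster 5 the call ended without control mouse 2 (-1.51; edgeR adjusted p = 0.174) or control mouse 3 (adjusted p = 0.056). In NK cells Klra5 differed by -0.21 (SE 0.26), and the test of T cells against NK cells gave -2.28 (SE 0.28; edgeR adjusted p = 7.44e-04).

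**Figure D5:**
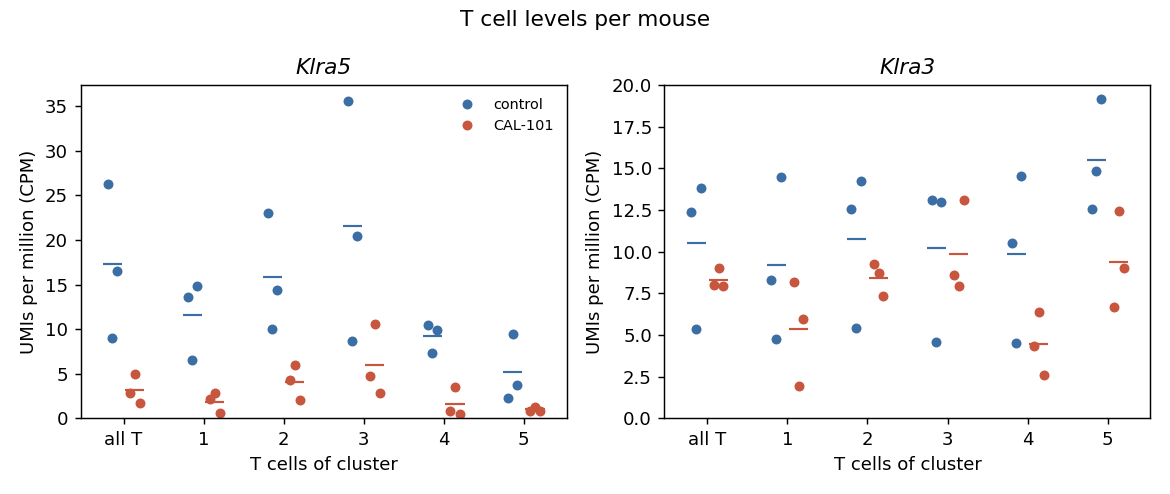
Level of Klra5 and Klra3 RNA in T cells and in each T cell cluster, in CPM, 1 point per mouse, control mice in blue and CAL-101 mice in red, with a short line at each group's mean. Klra5 in T cells runs from 8.97 to 26.2 CPM in controls and from 1.68 to 5.01 CPM in CAL-101 mice, and the Klra3 groups overlap.

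NK markers in the T cells moved with Klra5 in part. The 8 markers, all with UMIs, summed to 840 to 1023 CPM in control and 96.5 to 135 CPM in CAL-101 T cells. Without Gzma, a granzyme gene that activated T cells also express, the other 7 summed to 72.6 to 80.8 CPM in controls and 66.6 to 87.2 CPM in CAL-101 T cells, which overlap. Within clusters this sum of 7 was lower in CAL-101 mice without overlap in cluster 1 (84.2 to 123.4 against 66.98 to 68.4 CPM) and cluster 4 (66.7 to 68.6 against 52.1 to 60.6 CPM). It was higher in cluster 3 (79.3 to 85.8 against 93.8 to 120.9 CPM) and overlapped in clusters 2 and 5. Its part in the Klra5 difference was not tested. The NK genes Ncr1, Klrb1c, Klre1 and Klri2 summed to 53.2 to 59.7 CPM in controls and 43.0 to 79.5 CPM in CAL-101 T cells. Klrb1c by itself was called lower in CAL-101 T cells, as given below, so the sum does not stand for each of the 4 genes. Klra4 and Klra7, abundant in NK cells, differed in T cells by -0.39 and -0.50 without a call.

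Other genes of the lists also changed in T cells, where 17.3% of all genes were called. Of 16 signalling partners Ptpn6 rose by 0.40 and 5 fell, among them Lat2 (-0.86), Pik3r1 (-0.74) and Plcg2 (-0.58). No class I gene of 10 was called. Of 14 other NK receptors Klrb1c (-2.10), Klrb1b (-1.43) and Klrk1, the gene of NKG2D (-0.31), fell and Cd226 rose (0.28). Of 10 tested maturation genes 2 rose, Cd27 (0.45) among them, and 4 fell, with Gzma at -4.40 and Gzmb at -1.25. Transcription factors rose in 4 of 14 cases, Tox by 1.99 and Ikzf2 by 1.17 among them, and fell in 2, Zeb2 by 1.22 on the log2 scale. Residence genes rose in 3 of 10 cases and fell in 1, Il7r (-0.64).

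Granzyme genes were among those closest to Klra5 in T cells. Over the 30 sums of 5 T cell clusters by 6 mice, the genes with the highest Pearson r of log2(CPM + 1) to Klra5 were Anxa1 (0.88), Gzmf (0.86), Gpr141 (0.85), Gzme (0.85) and Serpinb9b (0.83), out of 9546. For Klra3 the highest were Serpinb1a (0.72) and Epdr1 (0.72). The sums share mice and libraries, so the values are a description.

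In NK cells the closest patterns over 24 sums of clusters 0, 7, 8 and 9 by 6 mice, among 9683 genes, differed by member. Klra4 ran closest to Cd9 (0.90) and Il10rb (0.89), Klra9 to Klrb1c, the gene of NK1.1 (0.90), and Gimap3 (0.88), and Klra8 to Shisa5 (0.86) and Gimap1 (0.85). Klra7 and Klra3 shared a neighbour in Nkg7, a gene of cytotoxic granules, at 0.87 and 0.86. Klra1 ran closest to Cd72 (0.85) and Klra6 to Alas1 (0.88). Klra5 ran closest to Sdhaf4 (0.95) and Pitpna (0.94). The sums again share mice, and those of cluster 9 hold as few as 33 cells.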

How the data were processed

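Single-cell 3′ RNA and antibody tags were deposited by the authors as UMI counts, 1 matrix per mouse with genes and antibodies, which, per the file headers, came from Cell Ranger 7.1.0, on mm10 per the submitters' processing notes. Cluster numbers and cell labels are the authors' deposited annotation. The sources used here give no annotation version, cell filter or doublet step; the annotated cells had at least 500 RNA UMIs.

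Counts were summed per mouse over cells of a set. Control and CAL-101 mice (3 each) were compared with edgeR 4.0.16 (R 4.3.3) by quasi-likelihood with TMM factors, filterByExpr and group alone, and Benjamini-Hochberg adjustment over all genes tested (antibodies: all 102). Cells with the highest and lowest 25% of an antibody's share of tags were summed per mouse and compared with the mouse as a block. The comparison of T cells with NK cells used an interaction in edgeR with the mouse as a block. A call is an adjusted p under 0.05. Levels are CPM of the set's RNA UMIs. Thinning drew 3000 (or 1500, 5000) UMIs per cell without replacement. Replicate mice differed beyond counting noise (chi-square per degree of freedom 4.85 to 47.0).

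The named genes are the members, up to 4 called genes of each list by smallest p, the 6 largest called differences each way with a mean of at least 10 CPM (without ribosomal, mitochondrial, Gm and Rik entries), and the genes most like a member by Pearson r with a mean of at least 5 CPM. Members, lists and tests were chosen with earlier results of these data known. On simulated counts for the NK comparison (13841 genes), 92% of genes with a log2 change of 2, 67% with 1 and 46% with 0.585 were recovered. For T cells (16450 genes) these shares were 98%, 70% and 58%. There were 7 false calls for NK cells and 10 for T cells. Smaller changes were not simulated. Alternatives were DESeq2 1.42.0, RLE factors, no filter, other sets of cells, each mouse left out, a replicate block, isotype scaling and other depths and tag numbers. Python 3.11.15 and matplotlib 3.10.9 were used for description and figures.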

Additional observations from a re-analysis of the deposited data

Results flagged for a closer look

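The difference in Klra5 between CAL-101 and control mice was not the same in T cells and NK cells. The log2 difference between CAL-101 and control mice was -2.48 in T cells and -0.21 in NK cells, and the test of the difference between them gave -2.28 (SE 0.28; edgeR adjusted p = 7.44e-04), with the mouse as a block over 16964 genes, of which 858 were called. In T cells all 3 CAL-101 mice were below all 3 controls, while in NK cells the groups overlapped. The labels do not say in words which cells met the drug. The T cells of the 2 groups lay in different clusters, and the part of this mix was not tested.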

How the results depend on the processing

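No result changed its direction while called. Over the alternatives, 850 of the values for single genes, antibodies, ratios and single NK clusters were counted as unchanged. For fitted values this means the same side of the threshold. Uncalled values whose sign changed are among them, such as Klra1 in T cells (1.17, and -0.48 at the lowest). A further 28 values of single genes lost a call and 13 gained one. Another 22 values without a test, mostly counts of all genes called in an NK cluster, moved. Klra5 in T cells was called under all 12 alternatives, from -3.004 to -2.04. The count of members called in NK cells was 0, and 1 with no filter on low counts and with all labels in the NK clusters, both Klra10 (0.85, edgeR adjusted p = 0.0376, and 0.97, adjusted p = 0.0438). The count over the single NK clusters was 2, and 0 to 3 with each mouse left out. For T cells it was 1, and 1 to 2 with each mouse left out.

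Counts of all genes moved more. In NK cells 595 became 2 to 1584 with a mouse left out, lowest without CAL-101 mouse 3 and highest without control mouse 2, 1255 with no filter, 893 with all labels and 213 without cluster 8. In T cells 2850 became 1288 (without control mouse 3) to 3782. For antibodies in T cells 17 became 7 to 19 with a mouse left out and 39 by DESeq2. For Ly49D-high cells 598 became 349 with RNA thinned to 3000 UMIs and 359 to 628 with a mouse left out. For Ly49H-high cells 373 became 195 with thinning, 569 with the third of cells at each end in place of 25%, and 217 to 388 with a mouse left out. The cause of these shifts was not tested. Without thinning, 13 pairs of members were co-detected above independence in all mice in place of 8. Thinning the RNA to 3000 UMIs gave log2 ratios of 3.45 for Ly49D by Klra4 and 2.19 for Ly49H by Klra8, in place of 4.41 and 2.68. With 16 tags in place of 10, 25.8% of cluster 0 cells were Ly49H+ in place of 35.7%.

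Mice that share a number did not vary together: the correlations of their deviations were -0.0079, -0.0696 and -0.0653 in NK cells and -0.355, -0.379 and -0.0207 in T cells, so the numbers are not treated as pairs. With the replicate block, 1392 genes in place of 2850 and 9 antibodies in place of 17 were called in T cells, 1 member in place of 2 in the NK clusters (Klra10 lost its call, adjusted p = 0.181), and Klra17 in T cells lost its call (edgeR adjusted p = 0.0767). Ranking by tag count, the interaction fits, the fits per T cell cluster, leaving out mice in single clusters, the markers without Gzma and the tag numbers 8 and 16 were chosen after seeing the data. With the ranking by tag count Klra1 was called higher in Ly49H-high cells (0.55, edgeR adjusted p = 5.61e-04).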

Other observations

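Depth limits several of these values. Klra10 had 254 UMIs in all NK cells and 2 in T cells, Klra6 698 and 98, so that their levels by mouse rest on few molecules. Only Ly49D and Ly49H were among the antibodies, so the surface level of the other 7 members was not measured here. In neutrophils 19 UMIs of Klra7, 3 of Klra5 and 2 of Klra3 were counted over 414 cells, and none of Klra1, Klra4, Klra6 or Klra10.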
